A study of Mus musculus with 13 samples.

Results

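Fatty acid oxidation and ketone body use were followed through 31 named genes, measured among 19838 genes in 13 libraries of mouse aorta and gastrocnemius muscle. The 31 were chosen by function, with earlier results of these data known. They run from the carnitine shuttle through the 4 steps of the beta-oxidation spiral to ketone body enzymes and the kinases that spare glucose. All 31 had a row in every table, 26 had enough reads to be tested in each comparison, and 5 (Cpt1b, Hadhb, Etfb, Acot1 and Acot2) had at most 4 counts in any library.

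The study asked what extra FOXM1 activity does in the tissues of old mice. FOXM1 is a transcription factor of the cell cycle, and its dNdK form lacks the N-terminal inhibitory part and the KEN box through which the protein is degraded. Libraries came from aorta and gastrocnemius, a calf muscle, of FVBxC57BL/6 mice aged 88 weeks. They were made with AmpliSeq, in which a primer pool amplifies a short stretch of each transcript before the reads are counted.

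Control mice, called Rosa26 here, had the genotype GFP-FOXM1dNdK-/-Rosa26-rtTAtg/+, and the other mice, called dNdK, had GFP-FOXM1dNdKtg/+Rosa26-rtTAtg/+. Both genotypes thus carried rtTA, the doxycycline-dependent activator, from the Rosa26 locus, and differed in the GFP-FOXM1dNdK transgene. There were 4 Rosa26 and 2 dNdK aorta libraries and 4 Rosa26 and 3 dNdK muscle libraries. The labels name no doxycycline treatment and no sex. They do not say that each library was a separate animal, so the p-values measure the spread between these libraries.

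Long-chain fatty acids enter mitochondria as carnitine esters. There each turn of beta-oxidation removes a pair of carbons through a dehydrogenase, a hydratase, a second dehydrogenase and a thiolase, and passes electrons to the respiratory chain through electron transfer flavoprotein. Brown fat, heart and oxidative muscle fibres are known for high use of this pathway, whereas the gastrocnemius is largely a fast muscle that also burns glucose. Ketone bodies made in the liver are turned back into acetyl-CoA in muscle and heart.

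Depth ran from 3919526 to 13683952 gene counts per library. Levels are given as scaled CPM, the CPM over reads on genes after TMM scaling of all 13 libraries. The detection floor used here, 3 counts, amounted to 0.165 to 0.641 scaled CPM. Foxm1 itself was low, at 0.221, 1.32, 0.906 and 0.427 scaled CPM in Rosa26 aorta and 0.184 and 0.377 in dNdK aorta. In muscle it stood at 0.098 to 0.377 in Rosa26 and 0 to 0.237 in dNdK. It had 24 and 13 counts in aorta Rosa26 2 and 3 and 0 to 5 elsewhere. Whether its amplicon reads the transgene is not stated in the labels.

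Markers of other tissues were present in several libraries. Ucp1, which defines brown fat, stood at 3762 to 6991 scaled CPM in all 6 aorta libraries, and all 6 brown fat markers were above the floor in each. Of the 6 smooth muscle markers 5 were tested between control muscle and control aorta: 3 were lower in muscle, 1 was higher, and the median log2 fold change was −1.10. Acta2 stood at 81.4 to 247 scaled CPM in control aorta and 49.5 to 83.9 in control muscle, Smtn at 31.3 to 56.8 and 134 to 181, and Myh11, which did not pass the test, at 51.6 to 63.7 and 30.3 to 81.1. Heart muscle RNA was present in 3 of them: Myh6, the adult heart myosin, stood at 654 and 268 in Rosa26 1 and 2 and 553 in dNdK 2, against 0 to 1.46 in the other 3. The sum of the 8 heart markers was 817 to 2118 scaled CPM in those 3 and 2.99 to 8.09 in the others. Muscle dNdK 3 held fat: its Ucp1 was 756 and its Adipoq 139 scaled CPM, against at most 7.78 and 8.997 in the other 6 muscle libraries. The 7 adipocyte markers summed to 6514 in muscle dNdK 3 and to 136 to 671 elsewhere in muscle. In bulk tissue, fewer cells of a type and less RNA per cell cannot be told apart.

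**Figure D1:**
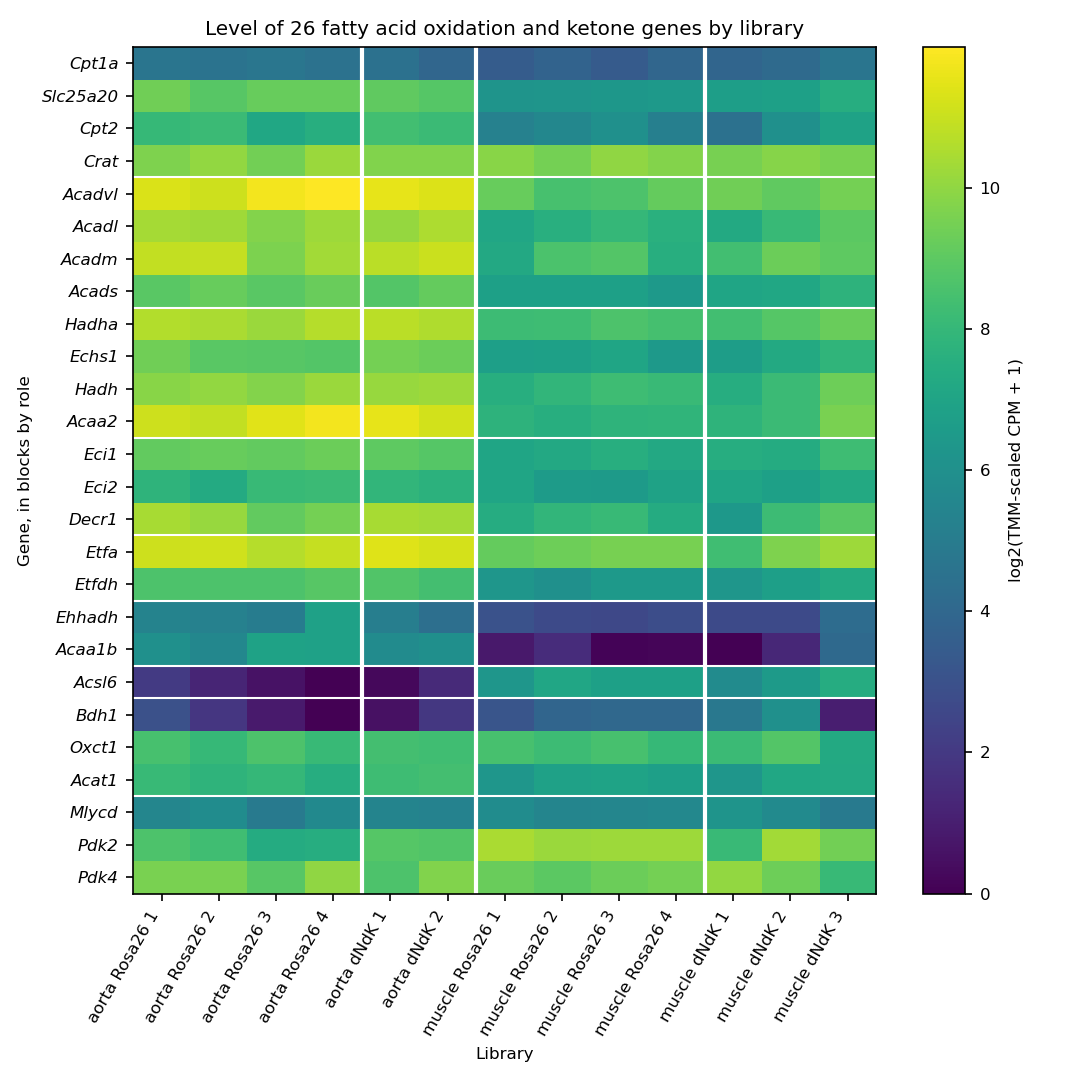
Levels of the 26 members with more than a few counts, as log2(TMM-scaled CPM + 1), in the 6 aorta libraries (left) and the 7 muscle libraries (right), with white lines between groups and between roles. Most rows are lower in muscle, while Acsl6 is at 0 to 3.17 scaled CPM in aorta, and muscle dNdK 3 is the highest muscle library for 19 of the 26.

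The 5 low members could not be followed. Cpt1b, the muscle form of carnitine palmitoyltransferase I, had 2, 0, 3 and 4 counts in the Rosa26 aorta libraries, 3 and 0 in dNdK aorta, and 1 count in all 7 muscle libraries together. Hadhb, the partner subunit of Hadha, had 0 to 3 counts, Etfb, the beta subunit of electron transfer flavoprotein, 0 to 4, and the acyl-CoA thioesterases Acot1 and Acot2 0 and 0 to 1. These counts are at or barely above the floor in both tissues. They do not show that the transcripts are absent: Fabp3 and Tnnc2, textbook muscle genes, were also low, with at most 0.194 and 2.55 scaled CPM in muscle. The cause was not tested.

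The first comparison set control muscle against control aorta, 4 libraries each, to place the pathway in the 2 tissues. Most of the oxidation machinery was lower in muscle: of 26 members, 19 were lower, 3 (Acsl6, Pdk2 and Bdh1) were higher, and 4 (Crat, Oxct1, Mlycd and Pdk4) did not pass the edgeR test at an adjusted p under 0.05. The members' median log2 fold change was −2.05, against −0.08 over all genes tested. This stood on a wide difference between the tissues, since 58.4% of 11058 genes passed, 27.5% higher (3038 genes) and 31% lower (3424 genes) in muscle. The members took 2.52% to 2.80% of all gene counts in the control aorta libraries and 0.472% to 0.570% in the control muscle libraries.

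TMM scaling sets the balance of this comparison. With library totals alone the split over all genes became 1298 higher and 6254 lower, with a median of −0.96, and the members' median was −2.92. Relative to all genes the members stood at −1.97 with TMM and −1.96 without. Brown fat markers moved with the same contrast: the 6 summed to 10115 to 13163 scaled CPM in control aorta and 1808 to 2491 in control muscle, where nearly all of the sum was Cox8b, a gene muscle also uses. What part fat has in the lower muscle values was not tested.

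**Figure D2:**
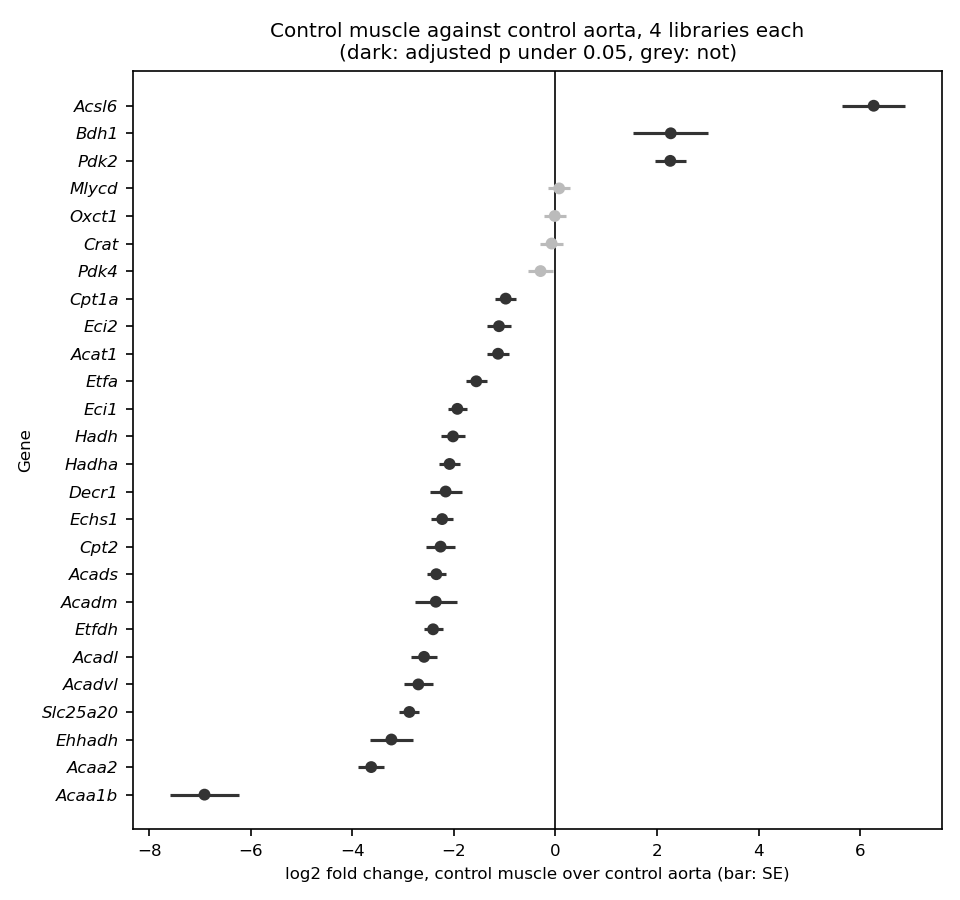
Log2 fold change of control muscle over control aorta for the 26 tested members (point, with its SE as a bar), in dark where the adjusted p was under 0.05. Acaa1b lies lowest at −6.91 and Acsl6 highest at 6.27, while Mlycd, Oxct1, Crat and Pdk4 lie near 0.

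Of the carnitine shuttle, 3 of the 4 tested members were lower in control muscle. Slc25a20, the carrier that exchanges acylcarnitine for carnitine across the inner mitochondrial membrane (chr9:108662136-108684642, GRCm38.p6), stood at 681, 470, 582 and 591 scaled CPM in aorta and at 72.5, 75.4, 80.5 and 88.3 in muscle. It was 7.34-fold lower in muscle, with no overlap (log2 fold change −2.88, SE 0.20, adjusted p = 1.22e-06). Cpt2, which reforms acyl-CoA on the matrix side, stood at 260.4, 291, 139 and 186 in aorta and 37.9, 45.2, 63.8 and 35.3 in muscle (−2.26, SE 0.29). Cpt1a, the entry enzyme of liver and many other cells, was lower by less, at 24.2, 22.9, 25.1 and 22.2 against 10.1, 13.2, 9.89 and 14.7 (−0.98, SE 0.21, adjusted p = 0.00241). Crat, carnitine acetyltransferase, overlapped between the tissues, at 700 to 1176 in aorta and 709 to 1029 in muscle (−0.08, SE 0.23). Its gene overlaps Dolpp1, so its count is uncertain.

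All 4 acyl-CoA dehydrogenases, which take the first step of each turn for long to short chains, were lower in control muscle, with log2 fold changes of −2.34 (Acads, SE 0.19) to −2.70 (Acadvl, SE 0.29). Acadvl, for very long chains, stood at 2561, 2177, 3567 and 4082 scaled CPM in aorta and 595, 358, 395 and 564 in muscle. Acadm, for medium chains, was 1894, 1949, 802 and 1296 in aorta and 151, 387, 437 and 182 in muscle. The groups of all 4 genes stayed apart, although Acadm varied more than 2-fold within each tissue. Acadl, for long chains, was 1309, 1251, 874 and 1197 in aorta and 137, 186, 252 and 195 in muscle (−2.59, SE 0.25). Acads, for short chains, was 491, 594, 478 and 605 in aorta and 113, 112, 113 and 89.4 in muscle.

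The later steps of the spiral were lower as well, in all 4 tested members. Hadha, the subunit of the trifunctional protein with hydratase and dehydrogenase activity, stood at 1583, 1409.9, 1178 and 1639.6 scaled CPM in aorta and 302, 307, 404 and 355 in muscle (−2.08, SE 0.21). Acaa2, the mitochondrial thiolase, had one of the widest gaps, at 2202, 1933, 2789 and 3535 against 213, 185, 219 and 229 (−3.63, SE 0.25, adjusted p = 1.36e-06). The muscle values lay close together and far below the lowest aorta value. Echs1, the short-chain hydratase, was 663, 489, 468 and 434 in aorta and 108, 114, 132 and 85.0 in muscle (−2.23, SE 0.22). Hadh, the short-chain hydroxyacyl dehydrogenase, was 944, 1076, 881 and 1185 in aorta and 179.7, 234, 311 and 283 in muscle (−2.02, SE 0.23). Echs1 overlaps Paox and is uncertain to that extent.

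All 5 tested members among the enzymes that handle unsaturated chains and the electron acceptors were lower in control muscle, with log2 fold changes from −2.41 to −1.11. Eci1, an enoyl-CoA isomerase, stood at 554, 596, 559 and 624.6 scaled CPM in aorta and 131, 150.5, 182 and 149 in muscle (−1.93, SE 0.19). Eci2, a related isomerase, stood at 219.9, 158, 273 and 290.4 in aorta and 132, 93.6, 92.1 and 118.6 in muscle (−1.11, SE 0.23), with the groups closer together. Decr1, the dienoyl-CoA reductase, split within aorta, at 1353 and 1137 in Rosa26 1 and 2 and 556 and 709 in Rosa26 3 and 4, yet stayed above muscle at 169, 234, 267 and 167 (−2.16, SE 0.32). Etfa, the alpha subunit of electron transfer flavoprotein, was 2187, 2223, 1625 and 1943 in aorta and 568.002, 649, 744 and 745 in muscle (−1.56, SE 0.21). Etfdh, which passes those electrons to ubiquinone, was 394, 404, 397 and 475 in aorta and 77.7, 64.0, 88.1 and 84.6 in muscle (−2.41, SE 0.19); its gene overlaps Ppid.

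The 2 peroxisomal members were lower in muscle, one of them to near 0. Acaa1b, a peroxisomal thiolase (chr9:119148043-119157093), stood at 64.2, 46.3, 119 and 117 scaled CPM in aorta and 0.747, 1.89, 0.098 and 0.126 in muscle (−6.91, SE 0.68, adjusted p = 1.36e-05). It overlaps Dlec1 and has a near-identical copy, Acaa1a, so its count is uncertain. Ehhadh, the peroxisomal bifunctional enzyme, was 39.8, 38.0, 31.9 and 116 in aorta and 7.10, 5.55, 5.09 and 6.16 in muscle (−3.23, SE 0.42).

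Acsl6, an acyl-CoA synthetase that activates long-chain fatty acids (chr11:54303805-54364756), was higher in muscle. It stood at 77.7, 135, 110.1 and 112 scaled CPM there and at 3.17, 1.37, 0.488 and 0 in aorta (6.27, SE 0.62, adjusted p = 1.42e-05). The aorta values rest on 43, 25, 7 and 0 counts, and they run in the order of Myh6 in the same libraries.

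The ketone body genes went 3 ways. Bdh1, which interconverts the 2 main ketone bodies (chr16:31422297-31458901), was higher in muscle, at 7.84, 13.9, 15.5 and 15.3 scaled CPM against 6.78, 2.69, 0.837 and 0 in aorta (2.27, SE 0.74, adjusted p = 0.0218). The aorta values again follow Myh6, and without the 2 control libraries with heart RNA the log2 fold change was 4.55. The call was lost with first-strand counts (1.45, adjusted p = 0.284) and with library totals alone (1.38, adjusted p = 0.130). Oxct1, the rate-limiting enzyme of ketone body use, stood at 364, 260.05, 403 and 274 in aorta and 364, 301, 365 and 263 in muscle (−0.01, SE 0.22). The 2 sets of values cover nearly the same range. Acat1, the mitochondrial acetoacetyl-CoA thiolase, was lower in muscle, at 77.5, 115, 122 and 107 against 273, 221, 251 and 177 (−1.13, SE 0.22, adjusted p = 0.0013).

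Among the regulators, Pdk2, a kinase that shuts pyruvate dehydrogenase and so spares glucose (chr11:95026258-95041371), was higher in muscle. It stood at 1441, 1186, 1214 and 1193 scaled CPM in muscle and 393, 316, 163 and 176 in aorta (2.26, SE 0.30, adjusted p = 0.00012). Pdk4, its counterpart that is induced by fasting, overlapped, at 607, 506, 634 and 727 in muscle and 769, 775, 473 and 1020.3 in aorta (−0.29, SE 0.25). Mlycd, which removes malonyl-CoA, the inhibitor of Cpt1, stood at 42.5 to 56.0 in muscle and 28.9 to 55.5 in aorta (0.07, SE 0.22). With library totals alone Crat (−0.94), Oxct1 (−0.89), Pdk4 (−1.15) and Mlycd (−0.80, the opposite sign) passed the test as lower in muscle.

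Over the 26 members, 3 had every muscle control above every aorta control and 19 had every one below. Among all genes tested 25.9% and 26.9% were apart in those directions. Without the 2 control aorta libraries with heart RNA, 19 were again called lower and 3 higher, and the median was −1.80.

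Other genes of fatty acid handling, a list of 52 with the uptake, storage, peroxisomal and regulatory genes, moved the same way: of 45 tested, 27 were lower in control muscle, 3 were higher, and the median was −1.35. Over all genes tested 31% were lower and 27.5% higher. Abcd3, a peroxisomal fatty acid transporter, had −3.57 (SE 0.19), Acsl5, an acyl-CoA synthetase, −6.11 (SE 0.39), and Ech1, a dienoyl-CoA isomerase, −2.57 (SE 0.21). Acss1, mitochondrial acetyl-CoA synthetase, had −2.12 (SE 0.17). Pdp1, the phosphatase that reopens pyruvate dehydrogenase, was higher in muscle (3.72, SE 0.27). The citrate cycle and pyruvate dehydrogenase list, 22 genes taken for mitochondrial content, moved by less: 12 of 21 tested were lower, 0 higher, and the median was −0.70.

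Promoters of the members were searched for the 2 elements best known for driving this pathway, because most members moved together between the tissues. The first was direct repeat 1, the site of PPAR and related receptors, taken as 2 copies of AGGTCA with 1 base between and at most 2 mismatches. The second was the ERR element TCAAGGTCA with none. Both strands of the 250 bases before each start in the RefSeq table (GRCm38.p6) were read, for 26 members with 30 promoters; the table has none for Cpt1b, Crat, Acaa2, Decr1 and Acat1. Direct repeat 1 was found in 2 of 30 (6.67%), against 3.24% of all 32851 promoters, and the ERR element in 1 of 30 (3.33%), against 0.387%. The 3 stretches are shown because they are all the matches among the members, with the matching bases in capitals, read 5′ to 3′ on the strand of the gene. They lie at chr7:140116472-140116524 (minus strand), chr9:55512288-55512340 (minus strand) and chr11:54303637-54303685 (plus strand).
Echs1: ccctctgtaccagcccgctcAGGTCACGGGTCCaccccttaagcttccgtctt
Etfa: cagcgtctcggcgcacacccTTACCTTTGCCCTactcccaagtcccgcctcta
Acsl6: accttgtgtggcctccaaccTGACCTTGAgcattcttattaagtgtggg
The capitals in Etfa and Acsl6 match on the opposite strand, and each direct repeat has 2 mismatches. Echs1 and Etfa were lower in control muscle and Acsl6 higher. The absence of a match in the other promoters says only that these letters were not in this window.

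The second comparison set dNdK muscle against Rosa26 muscle, 3 against 4 libraries. No member passed the edgeR test, and none of 10491 genes did (0%). At an unadjusted p under 0.05 there were 5 members and 792 genes, and DESeq2 called 7 genes and 0 members. Of the 26 members 22 had a higher estimate in dNdK, as did 53.1% of all genes tested. The members' median log2 fold change was 0.54, against 0.03 over all genes. That tilt depended on single dNdK libraries. Without dNdK 3, the library with fat, 18 of 26 were higher and the median was 0.19. Without dNdK 1 the median was 0.75, and without dNdK 2 it was 0.55.

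Library by library, the median difference of the 26 members from the Rosa26 mean was −0.07 in dNdK 1, 0.44 in dNdK 2 and 0.98 in dNdK 3, on the log2 scale. The 4 Rosa26 libraries lay at −0.07 to 0.16, but each is part of the mean it was compared with, which narrows that range. Muscle dNdK 3 was the highest of the 7 libraries for 19 members and dNdK 1 the lowest for 8. The adipocyte sum had the same order of dNdK libraries, at 182, 360.04 and 6514 scaled CPM in dNdK 1, 2 and 3, against 136 to 671 in Rosa26. Among the controls that order did not hold. Rosa26 2 had the largest control sum (671) with a member median of −0.06, and Rosa26 3 had a sum of 172 with 0.16. The sum of 9 fast fibre markers was 316186, 264895 and 190432 in dNdK 1 to 3 and 287811 to 318011 in Rosa26. That of 10 slow or oxidative fibre markers was 4387, 7447 and 2541 in dNdK 1 to 3 and 2663 to 6661 in Rosa26. Most of that sum was Mb, at 3362, 6515 and 2302 in dNdK 1 to 3. Myh2 had the order of Mb (615, 726 and 20.7), while Myl2 (97.0, 20.4 and 0.394) and Atp2a2 (163, 119 and 212) did not. The part of fat and fibre types in the members' values was not tested beyond leaving out dNdK 3.

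**Figure D3:**
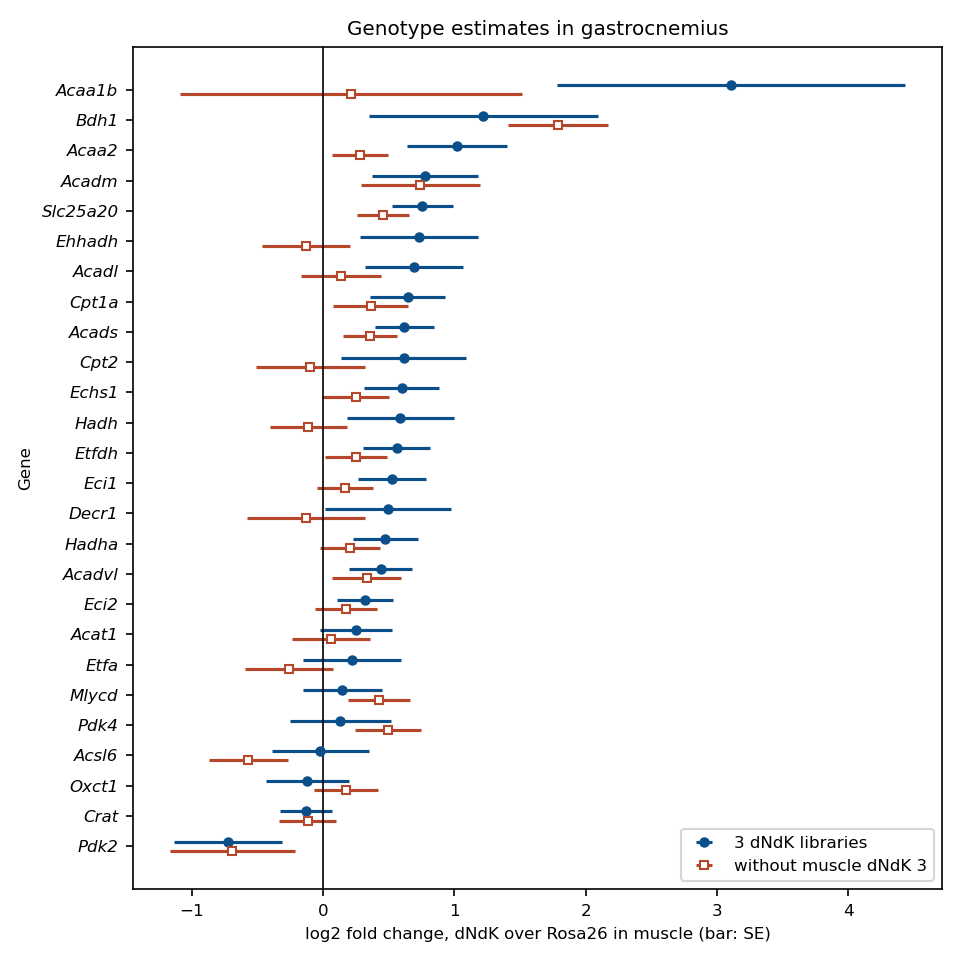
Log2 fold change of dNdK over Rosa26 in muscle for the 26 members (point with SE as a bar), with 3 dNdK libraries (filled) and without dNdK 3 (open). The filled points have a median of 0.54 and the open ones of 0.19, and Cpt2, Hadh, Decr1, Etfa and Ehhadh cross to negative without dNdK 3.

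The carnitine carrier Slc25a20 had the smallest p of the members. It stood at 72.5, 75.4, 80.5 and 88.3 scaled CPM in Rosa26 and 104, 112 and 178 in dNdK, means of 79.2 ± 6.92 (SD, n = 4) and 132 ± 40.8 (n = 3). Every dNdK library was above every Rosa26 library (log2 fold change 0.76, SE 0.23, unadjusted p = 0.00903, adjusted p = 0.656 in edgeR). Without dNdK 3 the value was 0.46 (adjusted p = 0.973). Cpt1a stood at 10.1, 13.2, 9.89 and 14.7 in Rosa26 and 14.2, 16.5 and 24.5 in dNdK (0.64, SE 0.28, adjusted p = 0.656), with dNdK 1 inside the Rosa26 range. Cpt2 was widely spread, at 35.3 to 63.8 in Rosa26 and 21.6, 63.3 and 121 in dNdK (0.62, SE 0.48). Crat had a slightly lower estimate (−0.13, SE 0.20), with 729, 893 and 765 in dNdK inside the Rosa26 range of 709 to 1029.

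Of the acyl-CoA dehydrogenases, Acads was also apart by genotype. It stood at 113, 112, 113 and 89.4 scaled CPM in Rosa26 and 130.5, 141 and 212 in dNdK (0.62, SE 0.22, unadjusted p = 0.0216, adjusted p = 0.656). Slc25a20 and Acads were the only 2 of 26 members whose groups did not overlap, both higher; among all genes 2.75% were apart as higher and 3.21% as lower. Acadm was 327, 640 and 511 in dNdK against 151 to 437 in Rosa26 (0.78, SE 0.40), and there dNdK 2, not dNdK 3, was highest. Acadl was 156, 266 and 499 against 137 to 252 (0.70, SE 0.37), and Acadvl 663, 532 and 714 against 358 to 595 (0.44, SE 0.24).

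The thiolase Acaa2 had the third smallest p. Rosa26 libraries stood at 213, 185, 219 and 229 scaled CPM and dNdK at 222, 289 and 756 (1.02, SE 0.38, unadjusted p = 0.0239, adjusted p = 0.656). The high value was that of dNdK 3 alone, and without it the estimate was 0.28 (adjusted p = 0.973). Hadha, at 302 to 404 in Rosa26 and 326, 460.4 and 618 in dNdK, and Echs1, at 85.0 to 132 and 103, 156 and 231, had the same order of dNdK libraries. Hadh was 180 to 311 in Rosa26 and 177, 288 and 653 in dNdK, and its estimate turned from 0.59 to −0.11 without dNdK 3.

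Decr1 and Etfa were spread widely among the dNdK libraries. Decr1 stood at 169, 234, 267 and 167 scaled CPM in Rosa26 and at 82.6, 300.5 and 492 in dNdK. Etfa stood at 568.002, 649, 744 and 745 in Rosa26 and at 322, 807 and 1202 in dNdK. In both genes dNdK 1 was the lowest and dNdK 3 the highest of the 7 libraries, so the genotype estimates of 0.50 (SE 0.48) and 0.22 (SE 0.37) were smaller than the spread. Eci1 (0.53, SE 0.26), Eci2 (0.32, SE 0.22) and Etfdh (0.56, SE 0.26) did not pass either.

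The peroxisomal thiolase Acaa1b had the largest estimate, and it came from 1 library. It had 0 to 17 counts in 6 muscle libraries, at 0.747, 1.89, 0.098 and 0.126 scaled CPM in Rosa26 and 0 and 1.52 in dNdK 1 and 2, and it stood at 16.4 in dNdK 3 (3.11, SE 1.33, unadjusted p = 0.0428, adjusted p = 0.656). Without dNdK 3 the estimate was 0.21. Ehhadh, at 5.09 to 7.10 in Rosa26 and 5.45, 5.37 and 18.0 in dNdK, was likewise higher in dNdK 3 only. Aorta libraries, which hold fat throughout, had 46.3 to 119 scaled CPM of Acaa1b and 19.5 to 116 of Ehhadh.

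**Figure D4:**
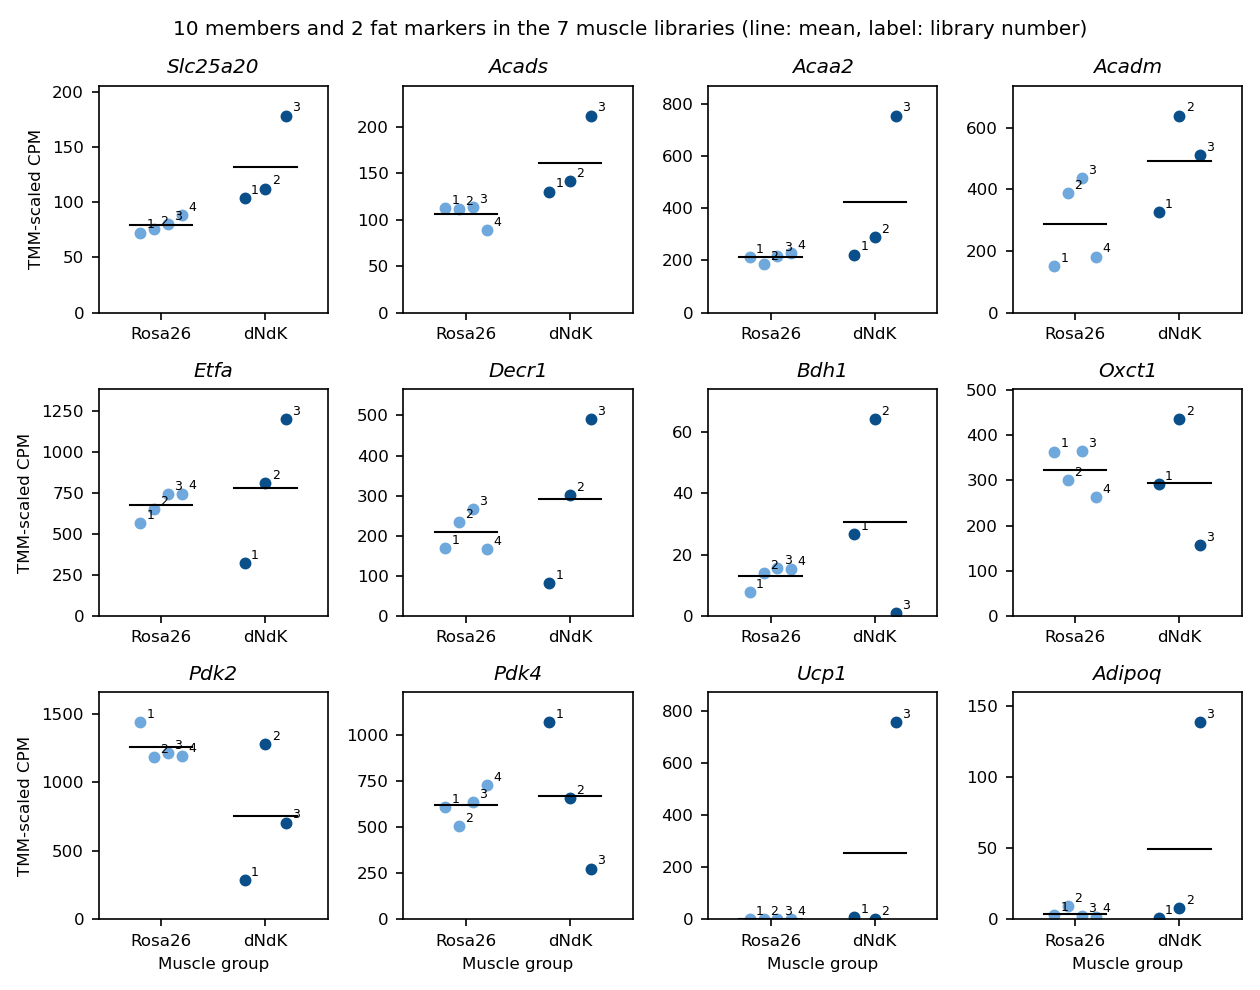
TMM-scaled CPM of 10 members and the fat markers Ucp1 and Adipoq in the 7 muscle libraries (points, numbered within each genotype, with the group mean as a line). Slc25a20 and Acads are apart by genotype, Bdh1 is highest in dNdK 2 (64.4) and lowest in dNdK 3 (1.03), and Pdk2 is lowest in dNdK 1 (283).

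Of the ketone body genes and regulators, Acat1 was highest in dNdK 3, while Bdh1, Oxct1, Mlycd and Pdk4 were lowest there. Bdh1 stood at 7.84, 13.9, 15.5 and 15.3 scaled CPM in Rosa26 and at 26.6, 64.4 and 1.03 in dNdK. In dNdK 1 and 2 it was above every Rosa26 library, and in dNdK 3 below every one (1.22, SE 0.87, adjusted p = 0.770). Without dNdK 3 the estimate was 1.79 (SE 0.38, unadjusted p = 0.00118, adjusted p = 0.973), and without dNdK 2 it was 0.05. Oxct1 was 364, 301, 365 and 263 in Rosa26 and 291, 436 and 156 in dNdK, so that dNdK 2 was the highest and dNdK 3 the lowest library (−0.12, SE 0.32). Acat1 was 77.4, 142 and 152 in dNdK against 77.5 to 122 (0.25, SE 0.27). Acsl6 was 54.1, 91.8 and 171 in dNdK against 77.7 to 135 (−0.02, SE 0.37).

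Pdk2 was low in a pair of dNdK libraries. It stood at 1441, 1186, 1214 and 1193 scaled CPM in Rosa26 and at 283, 1278 and 706 in dNdK (−0.72, SE 0.41, adjusted p = 0.713). Pdk4 was spread the other way, at 1069 in dNdK 1, 659 in dNdK 2 and 274 in dNdK 3 against 506 to 727 in Rosa26 (0.13, SE 0.39). Mlycd had the order of Pdk4, at 74.1, 52.6 and 28.8 against 42.5 to 56.0 (0.15, SE 0.30). Muscle dNdK 1 thus combined the lowest Pdk2, Etfa, Decr1 and Cpt2 with the highest Pdk4 and Mlycd of the 7 libraries, and dNdK 3 the lowest Bdh1, Oxct1, Pdk4 and Mlycd.

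Of the 52 other fatty acid handling genes, 44 were tested in muscle, 0 passed in edgeR (6 at an unadjusted p under 0.05), and 32 had a higher estimate, with a median of 0.24. Without dNdK 3, 24 of 44 were higher and the median was 0.05. The smallest p belonged to Plin5, which ties lipid droplets to mitochondria. It stood at 19.99, 16.4, 14.3 and 25.9 scaled CPM in Rosa26 and 45.7, 30.02 and 51.7 in dNdK, apart by genotype (1.18, SE 0.28, adjusted p = 0.656). Among all genes tested in muscle 2.75% were apart as higher. In aorta, with its fat, Plin5 stood at 137 to 391. Muscle dNdK 1, with Plin5 at 45.7, had an adipocyte sum of 182, inside the Rosa26 range of 136 to 671. The part of fat in Plin5 was not tested. Acsl5 had 1.85 (SE 0.59) and Ucp2, an uncoupling protein homologue, 1.05 (SE 0.34). The citrate cycle list had 13 of 21 estimates higher, a median of 0.12 and 0 genes past the test (1 at an unadjusted p under 0.05). Over all genes tested in muscle 53.1% of estimates were higher.

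The third comparison set dNdK aorta against Rosa26 aorta, 2 against 4 libraries. No member passed the edgeR test, none reached an unadjusted p under 0.05, and DESeq2 called 0 members. Over all genes edgeR called 1 of 11920 (0.00839%), with 713 at an unadjusted p under 0.05, and DESeq2 called 13. The members split evenly, 12 higher and 14 lower, and their median of −0.10 lay near the −0.05 of all genes. Its sign turned with several settings, for example to 0.00362 without the 3 libraries with heart RNA.

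Pdk2 had the smallest p of the members in aorta, and in muscle its estimate had the opposite sign. It stood at 393, 316, 163 and 176 scaled CPM in Rosa26 and 458 and 430 in dNdK (0.76, SE 0.38, adjusted p = 0.757). Both dNdK libraries were above all 4 Rosa26 libraries, and among the Rosa26 libraries the 2 with heart RNA were the higher. Without the 3 libraries with heart RNA, which leaves dNdK 1 alone against Rosa26 3 and 4, the value was 1.47 (adjusted p = 0.213). In that fit dNdK 1 is taken to vary like the controls. Acat1 was apart as well, at 273, 221, 251 and 177 in Rosa26 and 305 and 344 in dNdK (0.49, SE 0.24, adjusted p = 0.757).

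Ehhadh and Cpt1a had lower estimates in dNdK aorta. Ehhadh stood at 39.8, 38.0, 31.9 and 116 scaled CPM in Rosa26 and 34.0 and 19.5 in dNdK (−1.06, SE 0.57, adjusted p = 0.757), where Rosa26 4 stood far above the other controls. Cpt1a was 24.2, 22.9, 25.1 and 22.2 in Rosa26 and 20.9 and 14.5 in dNdK (−0.42, SE 0.25, adjusted p = 0.757), with both dNdK libraries below all controls. Echs1 was 663, 489, 468 and 434 in Rosa26 and 720 and 631 in dNdK (0.39, SE 0.25). In all, 3 members were apart as higher (Etfa, Acat1 and Pdk2) and 2 as lower (Cpt1a and Eci1), against 9.19% and 8.24% of all genes.

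The other roles gave small estimates. Those of the carnitine shuttle ran from −0.42 to 0.49, of the acyl-CoA dehydrogenases from −0.13 to 0.37, and of the later spiral steps from 0.03 to 0.39. Slc25a20, which was apart by genotype in muscle, stood at 681, 470, 582 and 591 scaled CPM in Rosa26 aorta and 527 and 452 in dNdK aorta (−0.25, SE 0.24). Oxct1 was 364, 260.05, 403 and 274 in Rosa26 and 343 and 321 in dNdK (0.03, SE 0.26). Pdk4 was 769, 775, 473 and 1020.3 against 403 and 857 (−0.28, SE 0.38), with 1 dNdK library below the control range and 1 inside it. Decr1, Cpt2 and Acadm had their lowest aorta values in Rosa26 3 and 4, 2 of the 3 libraries without heart RNA, while dNdK 1, the other library without it, had 1358, 332 and 1752; these 3 genes were singled out after their values were seen.

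**Figure D5:**
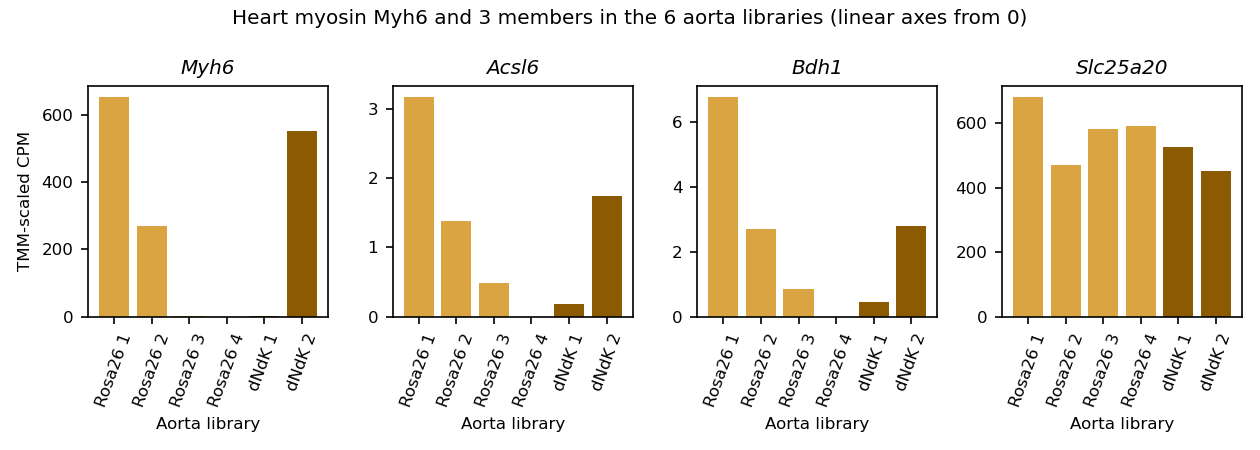
TMM-scaled CPM of the heart myosin Myh6 and of Acsl6, Bdh1 and Slc25a20 in the 6 aorta libraries (bars from 0, lighter for Rosa26 and darker for dNdK). Acsl6 and Bdh1 are highest in the 3 libraries with Myh6 at 268 to 654, whereas Slc25a20 ran from 452 to 681 in all 6.

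Acsl6 and Bdh1 in aorta were highest in the libraries with heart RNA, whose part in their values was not tested. Acsl6 stood at 3.17, 1.37, 0.488 and 0 scaled CPM in Rosa26 and 0.184 and 1.73 in dNdK, and Bdh1 at 6.78, 2.69, 0.837 and 0 and at 0.460 and 2.79. In both genes the 3 libraries with Myh6 at 268 to 654 had the 3 highest values. The genotype estimates were −0.45 (SE 1.23) and −0.71 (SE 1.25), neither past the test.

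Of the other fatty acid handling genes, 47 were tested in aorta, 0 passed in edgeR (1 at an unadjusted p under 0.05), and 22 were higher in estimate, with a median of −0.05. Acaca, an acetyl-CoA carboxylase of lipogenesis, had 1.05 (SE 0.38), Acsl3 1.39 (SE 0.61) and Gcdh, glutaryl-CoA dehydrogenase, 0.50 (SE 0.23). The citrate cycle list had 18 of 21 estimates higher, a median of 0.23 and 0 genes past the test (2 at an unadjusted p under 0.05). Over all genes tested in aorta 45.8% of estimates were higher.

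The last comparison took the genotype effect in muscle minus that in aorta, over all 13 libraries. No member and none of 12318 genes passed in edgeR (0%), with 5 members and 1044 genes at an unadjusted p under 0.05, and DESeq2 called 6 genes and 0 members. Of the 26 members 21 had a higher estimate, as did 56.2% of all genes tested. The members' median was 0.39, against 0.10 over all genes. Without muscle dNdK 3 and the 3 aorta libraries with heart RNA 15 were higher and the median was 0.24. That fit keeps dNdK 1 as the only dNdK aorta library, which is taken to vary like the other groups, and the 3 aorta libraries it keeps still hold fat.

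The 5 members with the smallest p were Slc25a20 (0.98, SE 0.35), Cpt1a (1.04, SE 0.37), Acaa1b (3.72, SE 1.51), Pdk2 (−1.50, SE 0.64) and Ehhadh (1.79, SE 0.78), each with an adjusted p of 0.583. For Slc25a20 and Cpt1a the estimate was higher in dNdK muscle and lower in dNdK aorta, and for Pdk2 the reverse. Without those 4 libraries the values were 0.55 for Slc25a20, 0.49 for Cpt1a, 1.38 for Acaa1b, −2.17 for Pdk2 and 0.92 for Ehhadh. Pdk4 (0.38, SE 0.62), Oxct1 (−0.16, SE 0.46) and Crat (0.00, SE 0.35) did not pass. Of the 52 other fatty acid handling genes 48 were tested, 0 passed (4 at an unadjusted p under 0.05), and the median was 0.35. Without muscle dNdK 3 that median was −0.00512, with 24 higher and 24 lower. Plin5 (1.505, SE 0.53), Ucp2 (1.37, SE 0.49) and Lpl, lipoprotein lipase (1.52, SE 0.66), had the smallest p.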

How the data were processed

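The deposited tables, 1 a library, list unnormalized counts of reads on each gene. Per the submitters' processing notes, STAR 2.5.2b, edgeR 3.28.1 and limma 3.42.2 were named, with builds mm10 and GRCm38.p6, while the annotation is not given in the sources used here. The first count column, reads on either strand, was used. The 8.58% to 13.3% of reads not assigned to a gene were left out: unmapped, mapped to several places, outside genes or ambiguous. Unmapped reads were the largest class. Genes were kept with filterByExpr (minimum count 10, minimum total 15), scaled by TMM (factors 1.19 to 1.47 in aorta and 0.720 to 0.927 in muscle) and tested with the quasi-likelihood test of edgeR 4.0.16 in R 4.3.3. P-values were adjusted by Benjamini-Hochberg over all genes tested, with a threshold of 0.05. A fold change has as its SE the estimate over the root of F. Genotypes were compared within each tissue, and the difference between tissues over all 13 libraries. The fit was also run on simulated counts with few changed genes. That run cannot show how the fit behaves where most genes differ, as between the tissues.

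The members and lists were chosen with earlier results of these data known. Named are all members by role, with values by library for those past the test or, where fewer than 5 passed, the 5 with the smallest p, and for Cpt1a, Cpt1b, Pdk4 and Oxct1; of the companion list at most 5 past the test or the 3 with the smallest p; and Foxm1. Fabp3, Tnnc2 and the libraries singled out were chosen after their values were seen. Amplicon reads carry no molecular identifiers, so floors cover counting error only, and levels are not compared between genes. Of 19838 gene rows, 19636 matched a RefSeq symbol, as did all 31 members. Alternatives were DESeq2 1.42.0, its size factors, no filter, each strand alone, replicate and name blocks, all libraries in 1 fit, leaving out libraries, and, chosen after seeing the data, library totals without TMM. The numbers that end the deposited names are shared by an aorta and a muscle library in 4 cases. Deviations of those pairs correlated at r = 0.159 to 0.365. Libraries with the same title number reached 0.40, so these values cannot settle whether the names pair the libraries. A block on them was tried for the tissue comparison. No sample pair was near-identical (highest r = 0.977). Marker lists for liver and for dissection stress were also read.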

Additional observations from a re-analysis of the deposited data

Results flagged for a closer look

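In 52 groups of 4 libraries, 4 held a single library far from the other 3; chance gives such a gap in about 1 group in 20. Acads was lowest in muscle Rosa26 4, at 89.4 scaled CPM against 112 to 113. Pdk2 was highest in muscle Rosa26 1, at 1441 against 1186 to 1214. Ehhadh was highest in aorta Rosa26 4, at 116 against 31.9 to 39.8, and Etfdh in the same library, at 475 against 394 to 404. Aorta Rosa26 4 was the shallowest library, with 3919526 gene counts.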

How the results depend on the processing

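The members called were 0 for either genotype comparison and their difference, and 22 between the tissues, under every alternative except library totals alone (25) and first-strand counts (21). With DESeq2 7 genes were called in muscle, 13 in aorta and 6 for the difference. In aorta the 1 called gene became 0 with either strand alone or all 13 libraries in 1 fit, 163 (19 higher, 144 lower) with the replicate block and 30 without heart RNA libraries. The members' aorta median of −0.10 became 0.0218 with the first strand, 0.0338 with the replicate block and 0.00362 without heart RNA. With library totals alone, chosen after seeing the data, the median was 0.676 for the difference and −2.92 between tissues; without heart RNA the latter was −1.80. Relative to all genes the medians with and without TMM were 0.52 and 0.55 in muscle, −0.06 and −0.05 in aorta and 0.29 and 0.29 for the difference.

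Deviations of libraries with the same title number correlated at −0.53 to 0.40, which cannot settle whether those numbers pair the libraries. The replicate block turned no member called between the tissues. Leaving out 1 library gave 0 to 3 genes in muscle (3 without dNdK 1), 0 to 1 in aorta, 0 for the difference and 5971 to 6440 between tissues. Medians ran from 0.192 to 0.750 in muscle, −0.0627 to 0.0415 in aorta, 0.229 to 0.565 for the difference and −2.15 to −1.93 between tissues.

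Some members changed sign, and none of these passed the test unless given. In muscle without dNdK 3, Cpt2, Hadh, Decr1, Etfa and Ehhadh turned negative and Oxct1 turned positive (0.177). In muscle, Acsl6 was 0.138 with the first strand, 0.156 with library totals, and −0.569 to 0.281 leaving out 1 library. Such ranges were −0.095 to 1.02 for Cpt2, −0.111 to 0.911 for Hadh, −0.128 to 0.924 for Decr1, −0.258 to 0.578 for Etfa, −0.130 to 1.02 for Ehhadh, −0.507 to 0.177 for Oxct1, −0.218 to 0.427 for Mlycd and −0.403 to 0.495 for Pdk4. In aorta, Oxct1 was −0.400 with the second strand, −0.115 with library totals and −0.0523 to 0.163 leaving out 1 library, and Pdk4 −0.893 to 0.159. For the difference, Oxct1 was 0.340 with the second strand, 0.0903 with library totals, 0.104 without muscle dNdK 3 and the heart RNA libraries and −0.561 to 0.127 leaving out 1 library, and Pdk4 −0.139 to 1.03. Between tissues, Oxct1 was 0.0195 with DESeq2 size factors, 0.0192 with DESeq2, 0.0162 without a filter, 0.0103 with the first strand, 0.00048 with the replicate block and −0.106 to 0.117 leaving out 1 library. Crat was 0.114 with the name block and −0.184 to 0.0711, and Mlycd −0.0211 with the first strand, −0.802 with library totals (adjusted p = 0.00718) and −0.0863 to 0.193. The cause was not tested. Single amplicons and 2 to 4 libraries a group limit all estimates.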

Other observations

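Liver markers were near 0 beside the ketone genes: Alb, Apoa1, Ttr and Serpina1a summed to at most 3.31 scaled CPM in any library. The 8 genes of dissection stress had 6 of 8 lower estimates in dNdK aorta (median −0.35) and 5 of 8 higher in dNdK muscle (median 0.15), with 0 past the edgeR test in either tissue (1 at an unadjusted p under 0.05 in each). Endothelial markers had 7 of 7 lower estimates in dNdK aorta (median −0.73) and 6 of 7 higher in dNdK muscle (median 0.35), with 0 past the test (2 at an unadjusted p under 0.05 in each). Their sum was 827, 652, 1716 and 1480 scaled CPM in Rosa26 aorta 1 to 4. In dNdK aorta it was 682 and 812, inside that range. In muscle it was 299 to 371 in Rosa26 and 498, 349 and 403 in dNdK. Over all genes 45.8% of estimates were higher in dNdK aorta and 53.1% in dNdK muscle.

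Uncoupling and pyruvate genes outside the list varied with the same single libraries. Ucp3, the muscle uncoupling protein, stood at 481 scaled CPM in muscle dNdK 1, the library with the highest Pdk4, against 164 to 290 in Rosa26 and 194 and 108 in dNdK 2 and 3. Pdp1, the phosphatase that opposes Pdk2, stood at 60.5, 175 and 77.5 in dNdK 1, 2 and 3 against 99.6 to 217 in Rosa26, so the 2 libraries low in Pdk2 were also low in Pdp1. Ucp3 and Pdp1 in muscle were chosen after their values were seen.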
